A study of Mus musculus with 6 samples.

Results

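The genes examined here were Xpc, Ddb2 and Ercc5 of nucleotide excision repair, Polh, Polk and Rev3l of translesion synthesis, and Rrm2b and Pcna, which supply nucleotides and the clamp for DNA synthesis. They were 8 of 22380 protein-coding genes of the mouse annotation, and were taken by name. For each, the p53 ChIP-seq peaks that overlapped the gene body extended by 10 kb on both sides were collected from 5 peak lists. ChIP-seq sequences the DNA that an antibody pulls down with a protein, here the antibody CM5p against the transcription factor p53, and peaks are the stretches where such fragments are enriched. All mice were of strain C57/Bl6. The 4 wild-type lists (Trp53+/+, 8 weeks of age) came from splenic B cells, selected with beads against the surface marker B220, and from the flow-through of that selection, the T cell-enriched non-B cells, each from mice that were mock treated or examined 4 h after 7 Gy of whole-body irradiation (IR). The fifth came from total spleen of Trp53-/- mice given the same irradiation, for which no age was stated, and shows what the antibody recovers without p53. Chromatin was pooled from 10 animals, and each group had 1 library, so there was no replicate spread to compare a difference with and no test was made. Peak lists carry no cell type markers, so the identity of the sorted cells could not be checked in them.

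Nucleotide excision repair cuts bulky and ultraviolet lesions out of DNA as a short single strand, and the gap is filled on the Pcna clamp. Translesion synthesis lets specialised polymerases copy past lesions that stop the replicative enzymes, and both processes need deoxynucleotides, which ribonucleotide reductase makes. XPC, DDB2, RRM2B, PCNA and POLH are described as p53 target genes in human cells. p53 binds DNA as a tetramer, and its response element is a pair of decamers, each with a C at position 4 and a G at position 7, which may be separated by a spacer.

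Sequences are shown for the elements on which the results turn. All are given 5′ to 3′ on the strand of the gene. That is the plus strand of mm9 for Ercc5 and Rev3l. For Rrm2b, Polk and Xpc it is the minus strand, so the plus strand at their coordinates reads the reverse complement. An element is called unsplit when the decamers adjoin, in 20 bases, and a match had to hold every core C and G and at most 3 mismatches elsewhere. The consensus is its own reverse complement, so each search covers both strands. The only unsplit element of the 8 genes that lay inside a peak was in intron 1 of Ercc5, at chr1:44205598-44205617. It is shown with 20 bases on either side and the element in capitals.

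Ercc5 intron 1: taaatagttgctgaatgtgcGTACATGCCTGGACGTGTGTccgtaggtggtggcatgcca

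All 6 elements with 1 or 2 mismatches in the 8 windows lay outside every peak, and 4 of them are shown for comparison with that of Ercc5. In the following 20-base lines lower case marks each mismatch to the consensus. The Rrm2b elements were downstream of the gene at chr15:37847749-37847768 and in intron 1 at chr15:37884606-37884625, the Rev3l element in intron 1 at chr10:39472812-39472831, and the Polk element in intron 9 at chr13:97262088-97262107. The last line is the closest unsplit match inside the Xpc start peak, at chr6:91465869-91465888, which had 5 mismatches and did not count as an element.
Ercc5 intron 1: GtACATGCCTGGACgTGTgT
Rrm2b downstream: AAGCATGCTCGAGCTTGTaT
Rrm2b intron 1: AGtCATGTTCcAGCATGTCT
Rev3l intron 1: GAGCATGCaCGGGCATGCaT
Polk intron 9: tAtCTAGCCCGGGCTAGCCT
Xpc start: GGGCgcGgCCAGGCgTGgCC

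The first question was whether p53 was found at these genes before irradiation. None of the 8 genes had a peak in either mock list or in Trp53-/- spleen. Over all protein-coding genes the shares with a peak were 4.45% for the B cell mock list, 2.27% for the non-B cell mock list and 0.125% for Trp53-/- spleen, so a count of 0 of 8 lay near the background and was no result about these genes. The nearest mock peak was 119 to 4230 kb from the gene in B cells and 28.2 to 4230 kb in non-B cells. The closest lay near Ddb2, at chr2:91105313-91105381 at the start of Arfgap2. The mock lists were shorter (1413 and 712 peaks) than the irradiated lists (24507 and 21400), and their peaks were narrower, with median widths of 95 and 93 bp against 340 and 315 bp. Read totals are not in the lists, so a site may have been bound in mock cells and not called, and what part depth had was not tested.

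After irradiation 7 of the 8 genes had a peak in each compartment, 87.5% (95% Wilson interval 52.9 to 97.8%, counting error only, as for all intervals here). Of all protein-coding genes 53.4% had one in B cells, and 51.8% had one in non-B cells. There were 11 peaks for B cells, 12 for non-B cells, and 6 genes had a peak in both. Rev3l had one in B cells only and Polh in non-B cells only. Longer genes have larger windows, and the median length of the 8 genes was 32069 bp against 15420 bp for all genes, so the share over all genes is not matched for window size. The other 70 genes listed for the 3 pathways gave shares of the same size. Of them, 64 had a peak in B cells (91.4%, 82.5 to 96.0%) and 63 had one in non-B cells (interval 80.8 to 95.1%). The 8 genes and this list were chosen with earlier results of these data known.

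**Figure D1:**
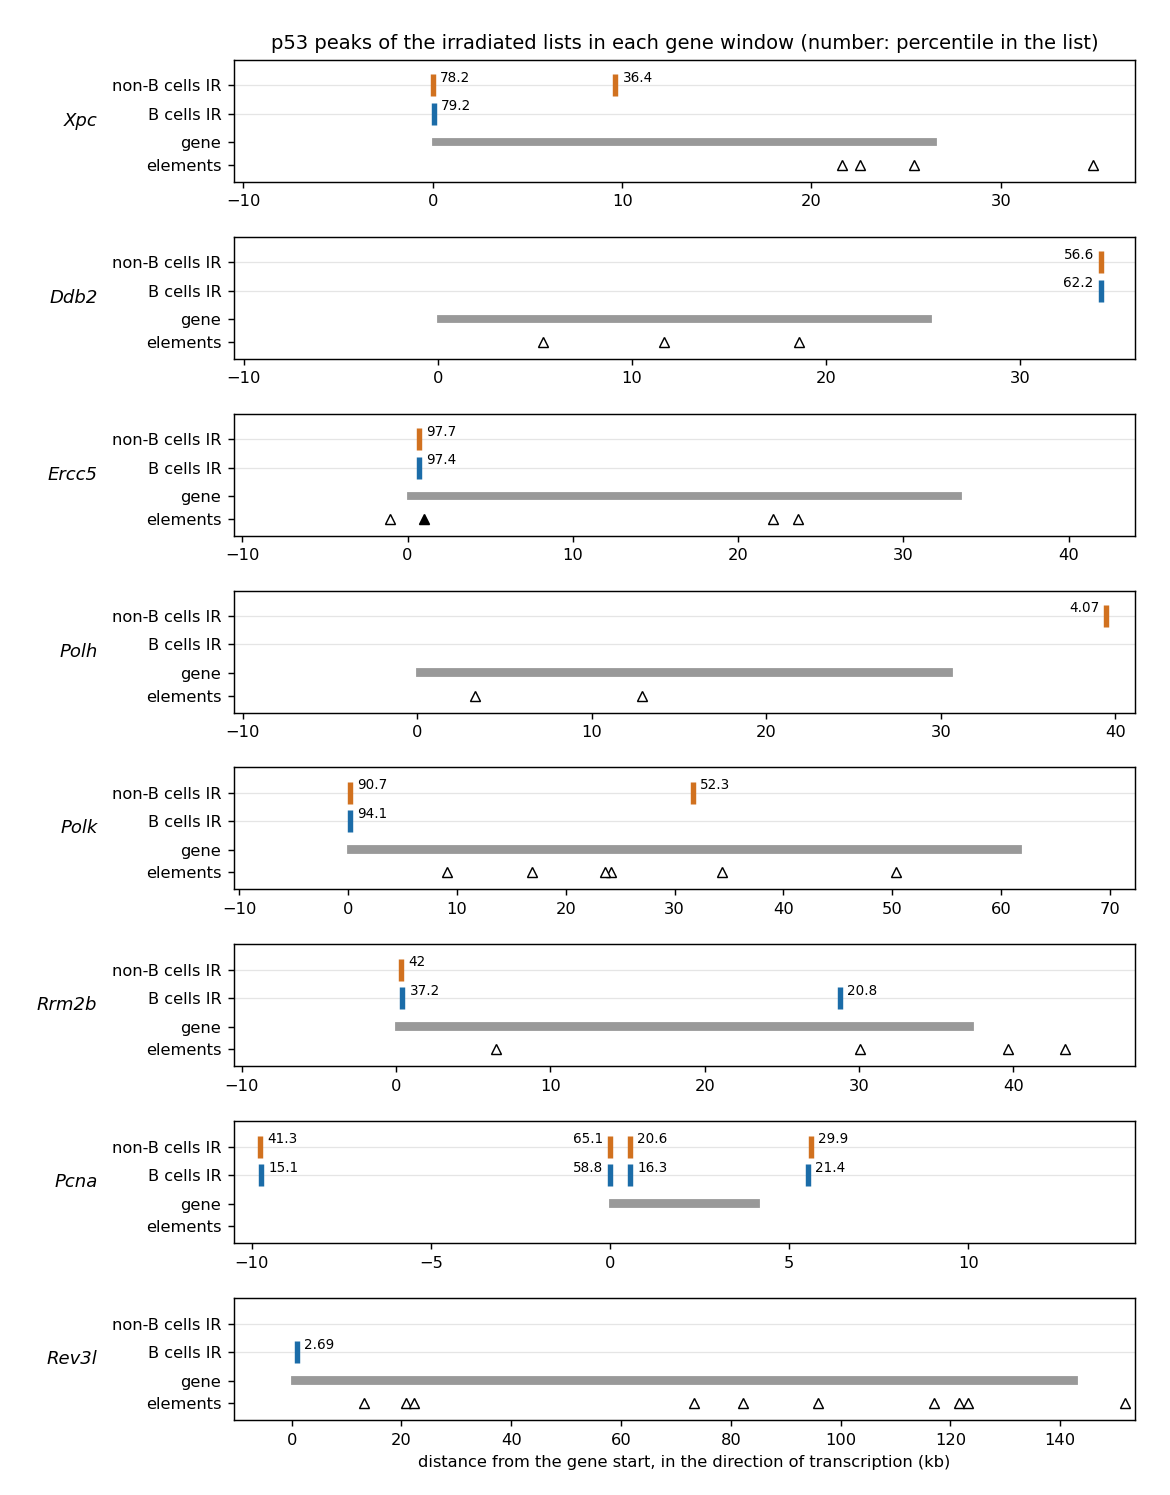
Peaks of the irradiated lists in each gene window, by distance of the peak midpoint from the gene start in kb (blue, B cells IR; orange, non-B cells IR), with the percentile of the peak in its list beside it. The grey bar is the gene body and triangles are unsplit p53 response elements with at most 3 mismatches (filled, inside a peak); the only filled triangle is in Ercc5, and the peaks of Ddb2 and Polh lie past the far end of the gene.

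The value of a peak was taken as −log10 of its p-value, a scale that the lists themselves do not state, and such a value depends on the depth of its library. It was therefore read only as a rank within its own list, with rank 1 the highest, and as the percentile that follows from the rank. The order of the genes by their highest peak was much alike in the compartments. In B cells it was Ercc5, Polk, Xpc, Ddb2, Pcna, Rrm2b and Rev3l, at percentiles 97.4, 94.1, 79.2, 62.2, 58.8, 37.2 and 2.69. In non-B cells it was Ercc5, Polk, Xpc, Pcna, Ddb2, Rrm2b and Polh, at 97.7, 90.7, 78.2, 65.1, 56.6, 42.0 and 4.07. As a yardstick, the percentiles of the 17273 peaks of the whole lists that paired one to one between compartments differed by a median of 10.8 points, and in 10% of pairs by more than 34.6 points. Ddb2 and Pcna were nearer to each other than that median in both lists and stood in opposite order. Ercc5 stood above Polk in both.

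**Figure D2:**
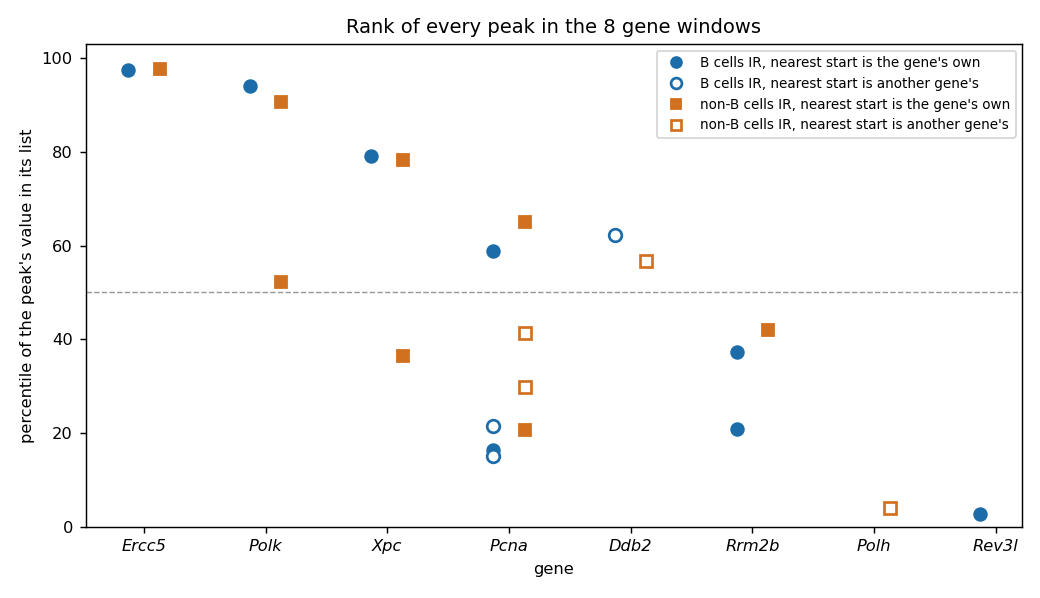
Percentile, within its list, of the value of each peak in the 8 gene windows (circles, B cells IR; squares, non-B cells IR; genes in order of their highest peak). Filled symbols mark peaks whose nearest annotated start site belongs to the gene itself and open symbols those nearest another gene, as for all peaks of Ddb2 and Polh; the dashed line is the middle of the list.

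Of Ercc5, Xpc and Ddb2, Ercc5 carried the highest peak. It encodes XPG, the nuclease that cuts on the 3′ side of the lesion. Its peak spanned the gene start into intron 1, at chr1:44204507-44206004 in B cells (value 132.52, rank 641 of 24507) and chr1:44204462-44206083 in non-B cells (value 163.22, rank 494 of 21400). At 1498 and 1622 bp it was also the widest of the 8 genes' peaks in either list. A higher best peak was found at 2.13% of all protein-coding genes in B cells, and at 1.72% in non-B cells.

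The Ercc5 element lay 1018 bp downstream of the gene start, and 352 and 335 bp from the peak midpoints in B and non-B cells. It had 3 mismatches. A further 3-mismatch element, 1039 bp upstream of the start, lay 0.902 kb outside the peak. Wide peaks held an element more often than others. They also offer more positions for a match, and what part that had was not tested. Of all peaks at least 1000 bp wide, 55.6% (52.1 to 58.9%) held one in B cells and 67.2% (63.1 to 71.2%) in non-B cells. Of those at promoters, as the Ercc5 peak is, 41.6% (36.1 to 47.3%) and 47.8% (40.7 to 55.0%) held one.

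Xpc encodes the protein that first recognises distorting lesions in global-genome repair. Its peak lay over the gene start, at chr6:91465584-91466084 in B cells (value 38.4, rank 5097) and chr6:91465672-91466090 in non-B cells (value 36.01, rank 4656). The start of Lsm3, an RNA-binding protein gene transcribed the other way, is 151 bp from that of Xpc and under the same peak, so the peak cannot be assigned to one of them. In non-B cells a lower peak was found in intron 4, at chr6:91456116-91456347 (value 15.19, rank 13620). A much higher peak lay 12.1 kb past the end of Xpc, outside the window, with values of 122.33 (rank 738) in B cells and 133.31 (rank 650) in non-B cells, and was centred 117 and 136 bp from the start of Tmem43.

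Ddb2 encodes the subunit of the UV-DDB complex that binds ultraviolet lesions. It had no peak in its promoter or gene body in any list. The peak counted for it lay about 34 kb from its start, past its end, at chr2:91042858-91043109 in B cells (value 25.25, rank 9260) and chr2:91042785-91043143 in non-B cells (value 21.8, rank 9278). That peak was centred 8 and 27 bp from the start of Nr1h3, the gene of the liver X receptor alpha, and overlapped the neighbouring start of Acp2. The 3 elements in the Ddb2 window, all with 3 mismatches, lay outside every peak.

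The translesion polymerases differed among themselves. Polk encodes polymerase kappa of the Y family. Its peak over the gene start, in the 5′ untranslated region at the midpoint, ranked second among the 8 genes, at chr13:97311976-97312608 in B cells (value 83.49, rank 1447) and chr13:97311968-97312628 in non-B cells (value 60.78, rank 1989). Col4a3bp starts 250 bp away in the opposite direction. A peak in intron 3 was listed in non-B cells only, at chr13:97280621-97280851 (value 20.17, rank 10218). No unsplit match with fewer than 7 mismatches was found in the Polk start peak, and the 6 elements of the window, 1 with 2 mismatches, lay elsewhere.

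Polh, the gene of polymerase eta, which copies past ultraviolet dimers, had no peak at its start or in its body in any list. A single peak in non-B cells, at chr17:46299979-46300186, fell in its window 39.5 kb from its start, with a value of 7.72 and rank 20529 of 21400. It lay inside Gtpbp2 and was centred 93 bp from an annotated start site of that gene. A higher peak at the start of Gtpbp2, with values of 40.44 (B cells) and 20.66 (non-B cells), lay 11.0 kb from Polh and just outside the window. Rev3l encodes the catalytic subunit of polymerase zeta, which extends from mispaired ends. Its peak was listed in B cells only, in intron 1, 0.9 kb from the start, at chr10:39452741-39452915. With a value of 7.46, rank 23849 of 24507 and a width of 175 bp, the smallest in that list, it was near the limit of detection.

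The peaks of Polh and Rev3l were the only peaks of the 8 genes with a value below 8, which on that scale is a p-value of 1e-08. Of all peaks in the irradiated lists, 4.5% (B cells) and 4.53% (non-B cells) were below it. Without such peaks 6 genes had a peak in each list, and they were the same 6 genes, Xpc, Ddb2, Ercc5, Polk, Rrm2b and Pcna.

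Rrm2b encodes p53R2, the small subunit of ribonucleotide reductase that supplies deoxynucleotides outside S phase. Its start peak was wide and low. It spanned 967 bp at chr15:37890179-37891145 in B cells (value 15.36, rank 15379) and 661 bp at chr15:37890433-37891093 in non-B cells (value 16.41, rank 12415). Ranked by width instead of value the best peak of Rrm2b moved from percentile 37.2 to 96.2 in B cells and from 42.0 to 90.3 in non-B cells. A peak in intron 6 was listed in B cells only, at chr15:37862219-37862425 (value 11.61, rank 19422).

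The Rrm2b window held the element closest to the consensus among the 8 windows, and none of its 4 elements lay in a peak. The downstream one, with 1 mismatch, was 14.5 kb from the nearest irradiated peak. The intron 1 one, with 2 mismatches, was 5.55 kb away and 6.46 kb from the gene start, and also lay in an exon of a noncoding transcript. Another with 2 mismatches, in intron 7, was 1.2 kb from the intron 6 peak.

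Pcna, which encodes the sliding clamp, is the shortest of the genes and had the most peaks, 4 in each list. At its start the peak had a value of 23.44 (rank 10088) at chr2:132078846-132079259 in B cells and 25.85 (rank 7474) at chr2:132078887-132079197 in non-B cells. A lower one in intron 1 had values of 10.6 and 11.52. The other peaks lay at the starts of neighbouring genes. At 5730494N06Rik, downstream, the values were 11.8 and 13.45, and at Cds2, upstream, they were 10.16 and 16.25, in B and non-B cells. The Pcna window held no unsplit element.

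Peaks were shared between compartments about as often as in the whole lists. Of the 11 B cell peaks, 9 overlapped a non-B cell peak (81.8%, 52.3 to 94.9%), against 73.6% of all B cells IR peaks. Of the 12 non-B cell peaks, 9 overlapped a B cell peak (75.0%, 46.8 to 91.1%), against 85.3% of all. The shared pairs had midpoints 5 to 101 bp apart, and their percentiles differed by 0.307 to 8.41 points except at Cds2, where non-B cells were 26.2 points higher. Of the 5 peaks listed in one compartment only, 4 were in the lower part of their list, at percentiles 2.69, 4.07, 20.8 and 36.4, and that in Polk intron 3 was at 52.3. In the whole lists the share overlapped by the other compartment was 52.1% (51.2 to 53%) for B cells IR peaks below percentile 50 and 95.2% (94.8 to 95.5%) for those above it, and 74.1% and 96.6% in non-B cells IR. Presence in a single list was thus seen mainly among low peaks, in these genes and in general, and whether the cell types differed there was not tested. None of the peaks of the 8 genes overlapped a mock peak, 0 of 11 (up to 25.9%) and 0 of 12 (up to 24.2%), against 4.28% and 2.43% of all peaks.

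A promoter was taken to reach from 5 kb before to 2 kb after any annotated start site. By that rule 6 of the 8 genes had a promoter peak in B cells, namely Xpc, Ercc5, Polk, Rrm2b, Pcna and Rev3l (75.0%, 40.9 to 92.9%), and the same genes but Rev3l had one in non-B cells, 5 of 8 (62.5%, 30.6 to 86.3%). The shares over all protein-coding genes were 39.5% and 38.4%. The other genes of the 3 pathways had a promoter peak in 61 of 70 cases in either list (87.1%, 77.3 to 93.1%). In base composition the start peaks varied. The GC content of the start peaks of Xpc, Rrm2b, Pcna and Rev3l was 61.4 to 66.9%, and that of Polk and Ercc5 was 48.8 to 54.6%, against a median of 57.1% at promoter peaks and 47.3% at other peaks in B cells IR. Their observed over expected CpG ratios, 0.786 to 0.975, were above the promoter medians of 0.682 and 0.712. Intronic peaks outside promoters, each listed in one compartment, had lower CpG ratios. These were 0.106 in Rrm2b intron 6, 0.171 in Xpc intron 4 and 0.635 in Polk intron 3, with GC contents of 43.0, 49.6 and 51.9%. That of Polk was nearer to the promoter medians than to those of other peaks, 0.222 (B cells) and 0.232 (non-B cells). The Rev3l peak, also intronic and listed in one compartment, lay in the promoter, was taken as a start peak and had a ratio of 0.917.

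The p53 response element was then counted. Only Ercc5 had an element inside a peak, 1 of 8 genes in each list (12.5%, 2.24 to 47.1%), where 11.1% of all protein-coding genes had one in B cells IR and 9.68% had one in non-B cells IR. The count was near the background. Over all irradiated peaks, 14.7% (B cells) and 14.6% (non-B cells) held an unsplit element, against 2.18% and 2.06% of the peak intervals after a shift of 10 kb. At promoter peaks it was found in 6.55% and 6.34%, and at other peaks in 21.2% and 21.8%. Among promoter peaks at or above percentile 90, the range of the Ercc5 and Polk start peaks, it was 37.8% (34.1 to 41.5%) in B cells and 35.6% (32.0 to 39.4%) in non-B cells. A peak of that rank at a promoter without an element, as at Polk, was thus the more common case.

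If a spacer of up to 13 bp was allowed, Pcna was added, through 2 split matches in the peak at the start of the neighbouring 5730494N06Rik. This looser search matched 34.7% of B cells IR peaks and 32.8% of non-B cells IR peaks, and 22.3% and 21.1% of the shifted intervals. Start peaks of Xpc, Polk and Rrm2b held split matches with 4 mismatches at best.

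Seen from the elements, the 8 windows held 33 unsplit elements, 6.32 per 100 kb, and 1 was in a peak of an irradiated list. Near all protein-coding genes 4.67% of 61771 elements were (4.51 to 4.84%). That share fell with mismatches, from 54.2% (48.4 to 59.9%) of elements without any to 29.1% with 1, 8.78% with 2 and 2.34% with 3. Of the 33, 27 had 3 mismatches, 5 had 2, 1 had 1, and none was without. Rev3l, the longest gene, had 10, Polk 6, Xpc, Ercc5 and Rrm2b 4 each, Ddb2 3 and Polh 2.

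**Figure D3:**
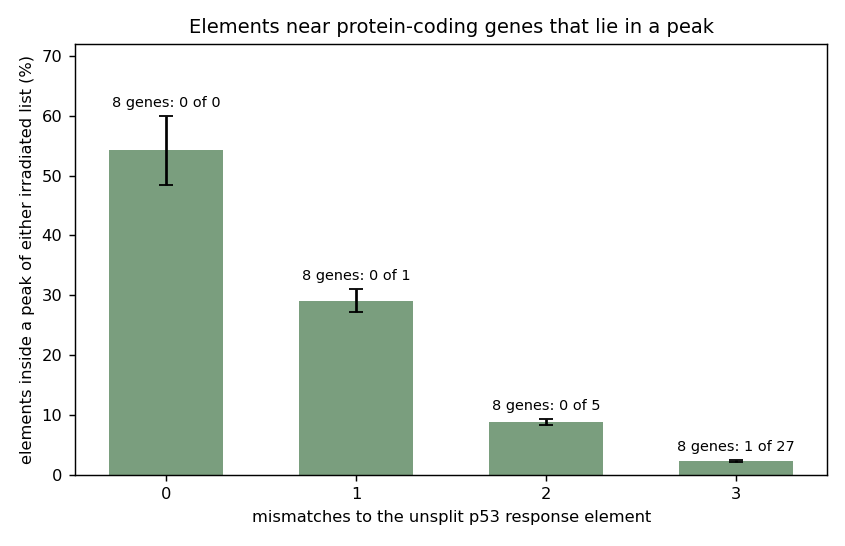
Share of unsplit p53 response elements near protein-coding genes that lie inside a peak of either irradiated list, by number of mismatches (bars; error bars, 95% Wilson intervals). The text above each bar gives the elements of the 8 genes, 1 of 27 with 3 mismatches and 0 of 6 with fewer.

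The 8 genes were last set beside their pathways. Excision repair genes had a peak in 28 of 30 cases (B cells IR) and 27 of 30 (non-B cells IR), translesion genes in 23 of 25 in both, and nucleotide supply genes in 20 of 23 in both. These lists include the 8 genes and, like them, were chosen with earlier results of these data known. Over genes with a peak only, the median percentile of the best peak was 62.2 (B cells) and 65.1 (non-B cells) for the 7 of the 8 genes, 69.3 and 71.2 for the other genes of the 3 pathways, and 66.5 and 67.5 for all protein-coding genes. Repair lists outside the 3 pathways gave shares of the same size, 18 of 20 for base excision repair and 7 of 8 for mismatch repair in both lists, and 29 and 28 of 32 for double-strand break repair. The share over all protein-coding genes includes genes that are silent in spleen, and expression was not used here. The share of the 8 genes with a peak lay inside the intervals of the other pathway genes in both lists. No gene was named for a pattern across lists like theirs, since the rule for that needed a mock peak.

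**Figure D4:**
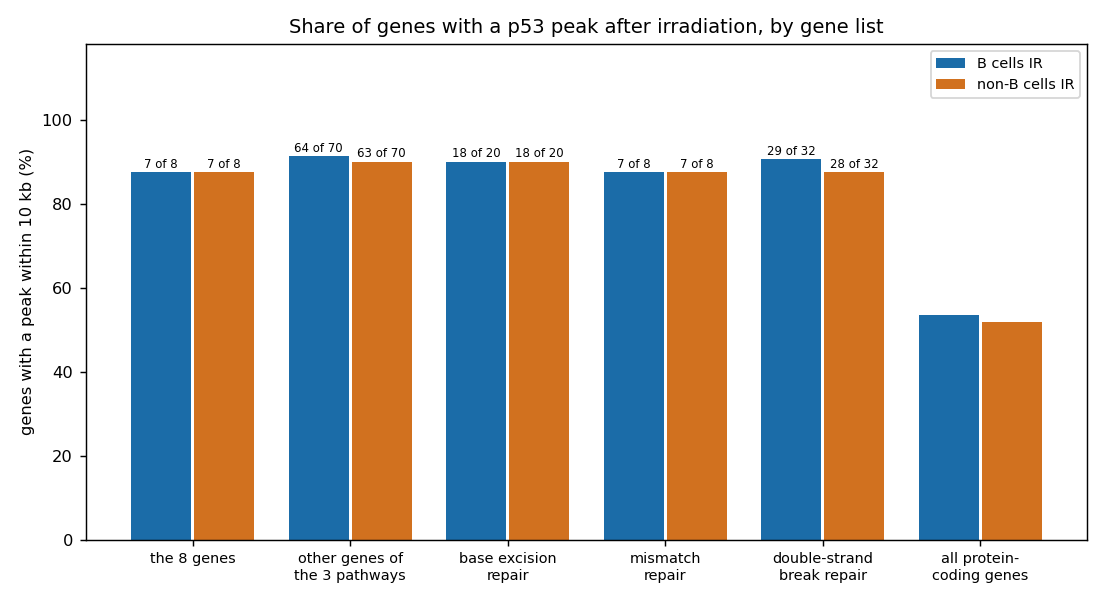
Percent of genes with a peak within 10 kb of the gene body in B cells IR (blue) and non-B cells IR (orange), for the 8 genes, the other genes of their 3 pathways, 3 further repair lists and all protein-coding genes (53.4 and 51.8%). Counts stand above the bars, and every repair list lies between 87.5 and 91.4%.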

How the data were processed

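p53 ChIP-seq had been carried out on 5 mouse spleen libraries, and an Input library was not used here. Per the methods of the study, chromatin was pooled from 10 animals, low-quality bases were masked, reads were aligned to mm9, and MACS was run on each library. The submitters' processing notes name BWA 0.6.2 and SAMtools. Each list gives chromosome, start, end, name and 1 value, which was taken as the −log10 p-value deposited by the authors. Its lowest values were 5.01 to 5.85, below the value of 8 to which the limit stated in the methods, 1e-08, would correspond. The scale was therefore not settled. Values expected for whole reads at a single background mean matched 29.7 to 41.6% of the wild-type values below 40, to within 0.01. Depth is unknown, and the values are not normalised between libraries.

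Peaks were assigned by overlap of at least 1 bp with GENCODE vM1 genes on mm9. The 8 genes and the pathway lists were chosen with earlier results of these data known. All 8 genes were named with each of their peaks, and among the other pathway genes those listed in every wild-type library and the 3 highest in each irradiated list. Elements were searched in the mm9 reference. The overlap, ranking and element steps recovered 823 of 823 pairs, 100 of 100 ranks and 400 of 400 planted elements on simulated data. Alternatives were other windows, minimum values, promoters, mismatch limits, spacers and overlap rules. The tools were pysam 0.24.0, pandas 2.3.3, numpy 2.4.6, matplotlib 3.10.9 and scipy 1.17.1 under Python 3.11.15.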

Additional observations from a re-analysis of the deposited data

How the results depend on the processing

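No paired analysis was possible because the groups hold a single library each, so none could be left out either. Of 66 recomputed main values, 59 stayed within 1.5 times or within their interval. These values were counts and shares, which have no sign to change. Many of the 59 were counts of 0 in the mock and Trp53-/- lists that stayed 0. The number of genes with a peak after irradiation ran from 5 to 8 of 8 in either compartment over windows of 0 to 50 kb, minimum values of 8 and 20, midpoint assignment and assignment to the nearest start. The background was not recomputed for these settings. With 50 kb windows 1 gene, Ddb2, had a peak in non-B cells mock instead of 0. The number of genes with an element in a peak changed most. With at most 2 mismatches it was 0 and 0 (B and non-B cells), and within 100 bp of the midpoint it was likewise 0 and 0, since the Ercc5 element has 3 mismatches and is off centre. With a spacer of up to 13 bp it was 2 for both compartments. Among the single values, 8 of 43 moved. Ranking by width moved 5 best-peak percentiles, those of Rrm2b in both lists, Ddb2 in B cells (27.6), and Polh (15.6) and Pcna (78.5) in non-B cells. A minimum value of 20 left 17 excision repair genes with a peak in non-B cells, and 11 and 7 base excision repair genes in B and non-B cells. A site missing from a list may lie below its limit of detection.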

Other observations

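Some other genes of the 3 pathways had higher peaks than Ercc5, Impdh1 and Rrm1 in both irradiated lists, Xab2 in B cells and Cul4a in non-B cells. The highest was at Impdh1, which encodes an IMP dehydrogenase of guanine nucleotide synthesis, at chr6:29173015-29174147 in B cells IR (value 234.54, rank 151) and chr6:29173039-29174118 in non-B cells IR (value 347.11, rank 134). It lay 7217 and 7214 bp upstream of the gene start and held 2 unsplit elements, the closest with 1 mismatch. Rrm1, the large subunit of ribonucleotide reductase and partner of the Rrm2b product, had a peak 17.6 kb into the gene in B cells IR (value 225.24, rank 175) and 17.5 kb in non-B cells IR (value 232.63, rank 297), without an element. At Cul4a, the scaffold of the ubiquitin ligase that contains Ddb2, a peak 196 bp from an internal start site held 2 elements, the closest with 1 mismatch (value 113.69, rank 827 in B cells; value 181.03, rank 434 in non-B cells). The peak counted for Xab2, which encodes a partner of the repair protein XPA, had a value of 153.94 (rank 482) in B cells and 73.7 (rank 1459) in non-B cells and held an element with 1 mismatch, but its nearest start site was that of Camsap3.

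In the mock lists, 5 of these 70 genes had a peak in B cells and 2 had one in non-B cells. Over all protein-coding genes the shares were 4.45% and 2.27%, and the counts were not tested against them. Usp1, the deubiquitinase that acts on PCNA, and Nme1, a nucleoside diphosphate kinase, had one in all 4 wild-type lists. At Usp1 the ranks were 967 of 1413 and 287 of 712 in the mock lists and 5763 and 4499 after irradiation. At Nme1 they were 1212 and 423 in the mock lists and 915 and 554 after irradiation. Neither locus had an element in these peaks. The nearest annotated start site to the irradiated peaks counted for Nme1 carried the name Nme2, at 112 and 108 bp. Those peaks, with values of 108.13 (B cells) and 149.06 (non-B cells), were not counted for the gene Nme2. Its own highest peaks after irradiation had values of 26.45 (B cells) and 25.32 (non-B cells). Whether that start site belongs to the gene counted as Nme2 was not tested.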
